A study of Mus musculus with 12 samples.

Results

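Kidney cortex of ethanol-fed mice was compared with kidney cortex of pair-fed mice, with the diet difference taken separately in mice given saline and in mice given lipopolysaccharide (LPS), the endotoxin of Gram-negative bacteria, and then averaged over those LPS states. The members were the protein-coding genes of the GENCODE M21 annotation that reached 1 FPKM (fragments per kilobase of transcript, scaled to the library's mapped fragments) in at least 3 of the 12 libraries. These were 11674 of the 21695 protein-coding genes in a table of 47719 genes, and 10021 protein-coding genes lay below that filter. All mice were male C57BL6/J animals described as 8 weeks old, kept for 6 weeks on their diet. Ethanol-fed mice had free access to the Lieber-DeCarli liquid diet, in which ethanol was raised in steps to 6%, and pair-fed mice received an isocaloric diet whose maltose-dextrin replaced the ethanol. Mice were injected 4 hours before tissue collection with saline vehicle (groups PF and EtOH) or with 10 mg/kg intraperitoneal E. coli LPS (groups PF4hLPS and EtOH4hLPS). There were 3 libraries a group and so 6 libraries a diet. A positive fold change means a higher value on ethanol.

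Chronic ethanol is oxidised through alcohol dehydrogenases, the cytochrome P450 CYP2E1 and catalase to acetaldehyde, and through aldehyde dehydrogenases to acetate; the proximal tubule, which makes up most of the cortex, carries many of these enzymes. The male mouse kidney is also a strongly androgen-responsive organ, in which proximal tubule cells express a large set of P450, transporter and secreted-protein genes under testosterone. LPS acts on top of this as a short inflammatory stimulus and induces interferon, chemokine and acute-phase genes within hours.

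The deposited FPKM values carry no read counts, so sequencing depth was known only in relative terms, from the steps between the lowest values of the same genes. Against the first PF library, depth was 0.988 to 1.2 in PF, 0.721 to 0.941 in EtOH, 0.491 to 0.744 in PF4hLPS and 0.668 to 0.762 in EtOH4hLPS, so that all EtOH libraries were shallower than all PF libraries; its part in the diet differences was not tested. Between 12354 and 13092 genes reached 1 FPKM in a library. In 3 libraries, PF4hLPS replicate 2, EtOH4hLPS replicate 1 and PF replicate 1, values declined with the GC content of the transcript, with slopes of -0.439, -0.323 and -0.268 log2 units per 10 percentage points of GC relative to the group mean, while the other 9 slopes lay between -0.073 and 0.23. The labels give the source once as whole kidney and once as cortex. Proximal tubule markers were abundant in every library, with Slc34a1 at 465.4 to 930.9 FPKM. Markers of the inner medulla and urothelium were mixed. Slc14a2, the urea transporter of the inner medulla, did not exceed 0.3173 FPKM, but Aqp3 read 4.933 to 29.3 FPKM. Upk1a and Upk3a read 0.8403 to 1.349 FPKM in PF replicate 2, EtOH replicate 2 and PF4hLPS replicate 1. In the other libraries Upk1a and Upk3a did not exceed 0.1902 FPKM. Skeletal muscle markers (Acta1, Myh4, Ckm) and the adrenal enzymes Cyp11a1 and Cyp11b1 were near 0 throughout.

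Averaged over LPS states, 38 of the 11674 protein-coding genes tested, 0.326%, passed an adjusted p of 0.05 (limma on log2(FPKM+1), Benjamini-Hochberg over all 14109 genes tested). Of these, 10 genes were higher on ethanol, 0.0857% of those tested, and 28 were lower, 0.24%. At an unadjusted p under 0.05 the counts were 593 higher and 558 lower, together 9.86% of the genes tested. At least a 2-fold difference on the FPKM+1 scale was seen for 4 of the 10 higher genes and for 16 of the 28 lower genes. Each of the 38 had the same sign without and with LPS, as did 55% of all protein-coding genes. The 38 were called on the mean of the differences in the LPS states, which favours equal signs. Nothing is read from that agreement. In 37 of the 38 the 3 ethanol libraries lay apart from the 3 pair-fed libraries within either LPS state, which also held for 255 of all protein-coding genes, 2.18%; since the genes were called on these values, nothing is read from that count. In 30 of the 38 all 6 ethanol libraries lay apart from all 6 pair-fed libraries. That count comes from the values used for the calls and has no share over all genes beside it, so nothing is read from it either. An exact permutation of diet within each LPS state gave 0.005, the smallest p its 400 arrangements allow, for 37 of the 38 genes.

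**Figure D1:**
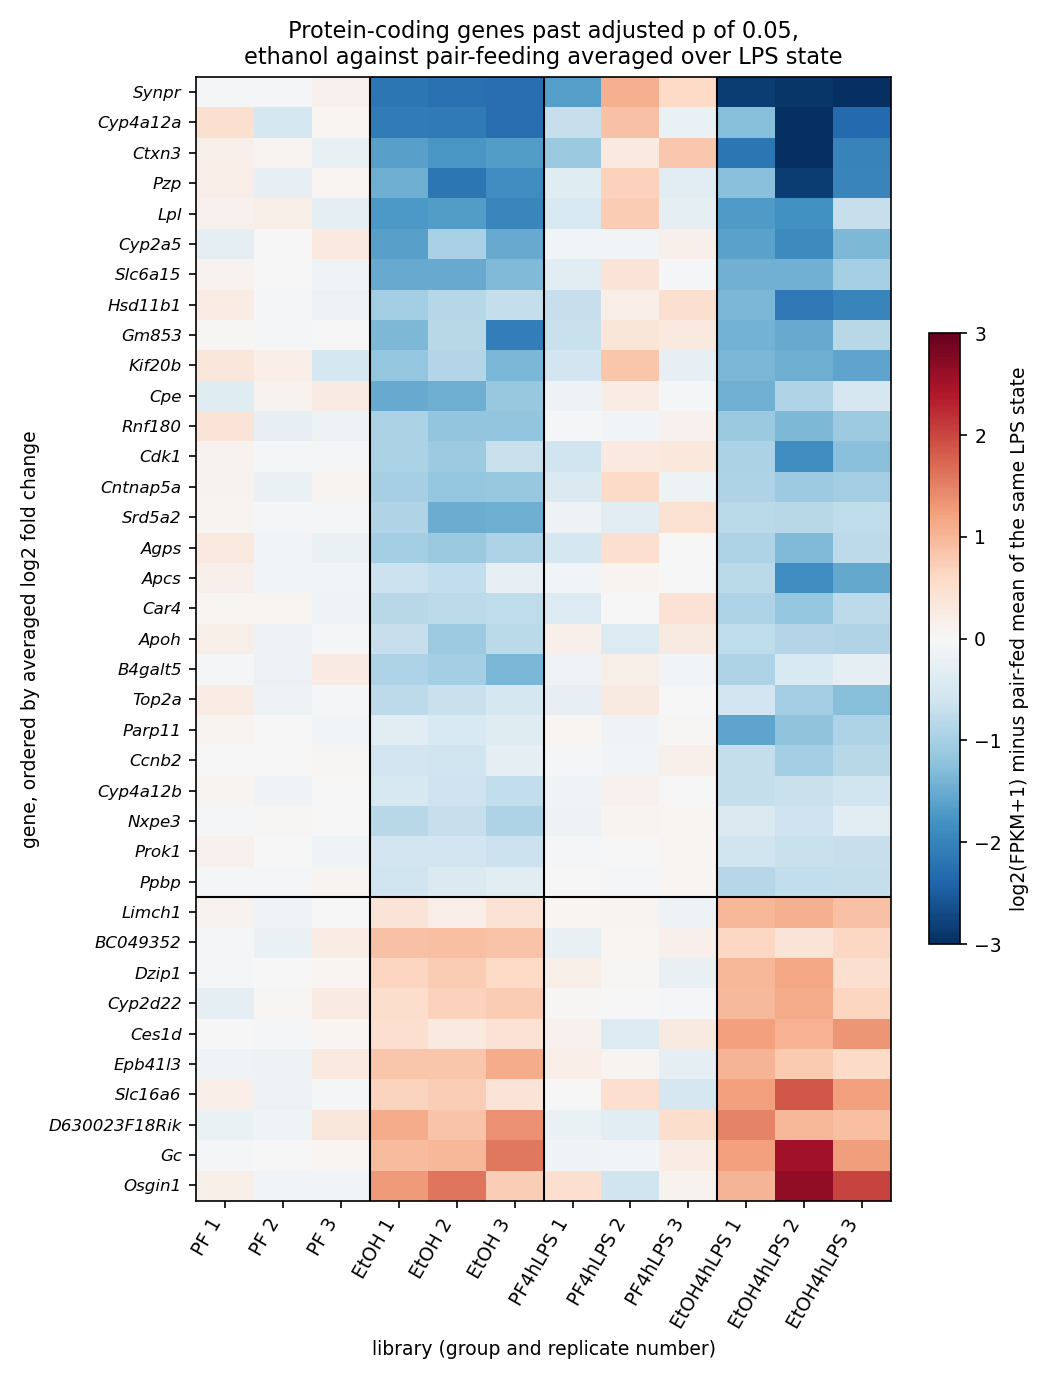
Each row is one of 37 called genes, ordered by averaged log2 fold change, and each column one of the 12 libraries; colour gives log2(FPKM+1) minus the mean of the 3 pair-fed libraries of the same LPS state, and values beyond the ends of the colour bar take its end colours. The 27 genes above the horizontal line are blue in the ethanol columns of either LPS state and the 10 genes below it are red there.

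The number of called genes moved with single libraries. Leaving out 1 library gave 4, 4 and 6 calls without PF replicates 1, 2 and 3, and 5, 3 and 3 without EtOH replicates 1, 2 and 3. It gave 68, 23 and 7 calls without PF4hLPS replicates 1, 2 and 3, and 23, 5 and 16 without EtOH4hLPS replicates 1, 2 and 3. Without the 3 libraries that declined with GC content, 31 genes were called, 11 higher and 20 lower, and 15 of them were among the 38. After a linear GC trend was removed from every library, 77 genes were called, 31 higher and 46 lower, which put 40.3% of calls on the higher side against 26.3% before; 37 of the 38 were among them. All 38 genes kept their sign wherever they were tested, and leaving out a library changed no fold change of theirs by more than a factor of 0.841 to 1.16. In 37 of the 38 the diets lay apart within either LPS state, so leaving out a library could not turn the sign. Nothing is read from the kept signs. Slc6a15, Cyp2a5 and Rnf180 were called in all 12 fits that left out a library, and each of the other 35 lost its call in at least 5 of them. Rnf180, Synpr, Cntnap5a, Ppbp and Ccnb2 reached 1 FPKM in pair-fed libraries alone, and BC049352 in ethanol libraries alone. The filter therefore admitted these genes only through the diet in which they were higher.

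Several lower genes encode enzymes of steroid, fatty acid or xenobiotic metabolism. Cyp4a12a, the omega-hydroxylase that makes most of the arachidonic acid metabolite 20-HETE in male mouse kidney, is an androgen-inducible gene (GRCm38 chr4:115299046-115332815, plus strand). It read 50.6, 24.6 and 37.6 FPKM in PF, 7.73, 7.58 and 6.66 in EtOH, 21.2, 64.8 and 30.2 in PF4hLPS, and 13.8, 2.4 and 6.09 in EtOH4hLPS. All 6 ethanol libraries lay below all 6 pair-fed libraries, and the averaged log2 fold change was -2.25 (SE 0.36, adjusted p = 0.0306). The neighbouring Cyp4a12b, a near-identical copy with which reads may be shared, fell by 0.64 on the log2 scale from a far lower level, at 2.55 to 3.48 FPKM in pair-fed and 1.28 to 1.74 FPKM in ethanol libraries. The other 7 tested Cyp4 genes did not pass, among them Cyp4a31 at a log2 fold change of 0.28 (adjusted p = 0.7) and Cyp4b1 at 0.17 (0.846), and the median of all 9 was -0.01.

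Hsd11b1 encodes the enzyme that regenerates active glucocorticoid from its inert keto form (chr1:193221634-193264075, minus strand). Its FPKM was 104, 86.3 and 77.8 in PF, 42.3, 48.6 and 53.5 in EtOH, 80.5, 149 and 182 in PF4hLPS, and 49.3, 28.4 and 32.3 in EtOH4hLPS. No ethanol library reached the lowest pair-fed library, and Hsd11b1 fell by 1.35 (SE 0.21, adjusted p = 0.0263). Srd5a2, the reductase that converts testosterone to dihydrotestosterone, read 7.81, 6.99 and 7.02 FPKM in PF and 3.39, 1.93 and 1.99 in EtOH, and 5.21, 4.56 and 8.53 in PF4hLPS and 2.91, 2.87 and 3.1 in EtOH4hLPS. It fell by 1.05 (SE 0.15, adjusted p = 0.0263), again with no overlap between the diets. Cyp2a5, a P450 of xenobiotic metabolism that hydroxylates coumarin (chr7:26835305-26843548, plus strand), read 126, 156 and 191 FPKM in PF, 49.9, 78.9 and 53.5 in EtOH, 122, 121 and 143 in PF4hLPS, and 41.7, 33.3 and 49.4 in EtOH4hLPS. Its averaged log2 fold change was -1.50 (SE 0.16, adjusted p = 0.00302), the second-lowest adjusted p of the 38 protein-coding genes, although reads may be shared with its close copy Cyp2a4.

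Of 25 tested genes on a list of androgen-regulated kidney genes, Hsd11b1 and Cyp4a12a passed, both lower. At an unadjusted p under 0.05, 13 were lower and 3 higher, 52% and 12% of the list, against 4.78% and 5.08% of all protein-coding genes tested. This list and the others below were written with earlier results of these data known, so their shares are descriptions only. The list's median log2 fold change was -0.57, against 0 over all genes, with -0.49 without and -0.58 with LPS. Gusb, the lysosomal beta-glucuronidase, stood at -0.69 (adjusted p = 0.0511) and Acsm3, a medium-chain acyl-CoA synthetase, at -1.39 (0.0562), neither past the threshold. Acsm3 was among the most abundant of these transcripts, at 959 to 2656 FPKM in pair-fed and 400 to 1003 FPKM in ethanol libraries. Kap, the kidney androgen-regulated protein and the most abundant proximal tubule marker examined, ranged from 39340 to 66560 FPKM on ethanol and from 52870 to 105600 FPKM on the pair-fed diet, with a log2 fold change of -0.61 that did not pass (adjusted p = 0.374).

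**Figure D2:**
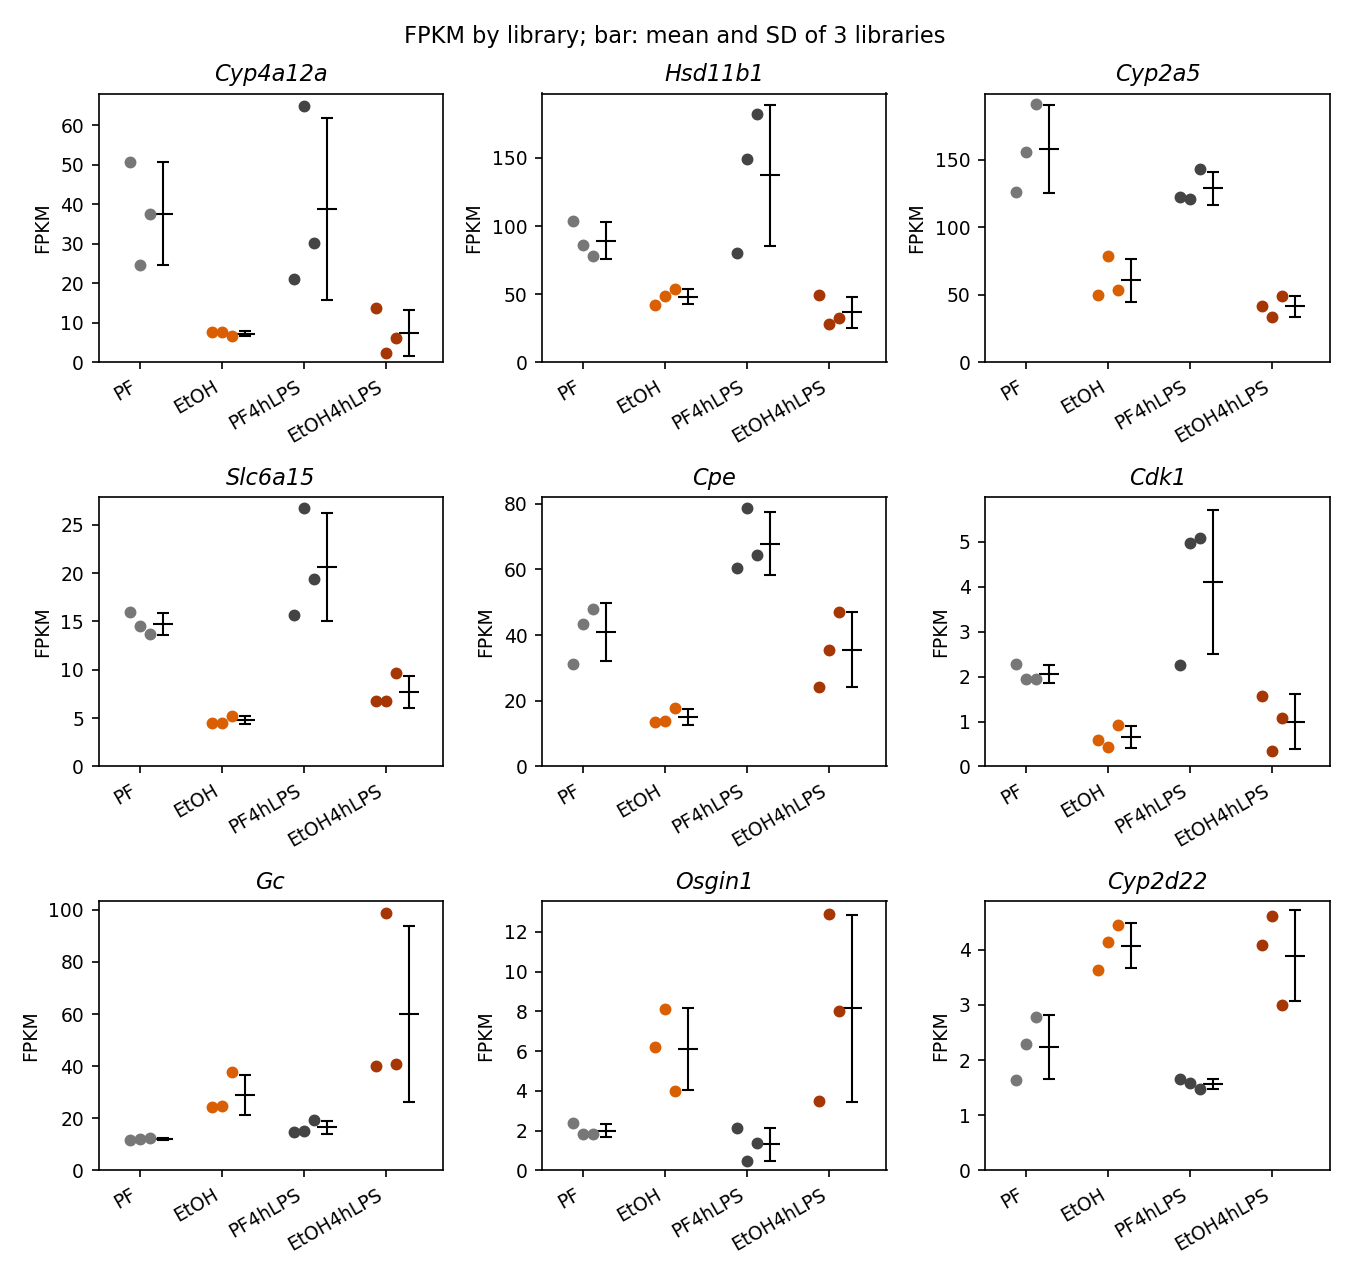
FPKM of 9 called genes in each library (points), with the mean and SD of the 3 libraries of a group (bar), on linear axes starting at 0. The ethanol groups (orange) sit below the pair-fed groups (grey) of the same LPS state for Cyp4a12a, Hsd11b1, Cyp2a5, Slc6a15, Cpe and Cdk1 and above them for Gc, Osgin1 and Cyp2d22.

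Other lower genes encode membrane and secreted proteins. Slc6a15, a sodium-dependent transporter of neutral amino acids (chr10:103367783-103419377, plus strand), read 16, 14.5 and 13.7 FPKM in PF, 4.5, 4.54 and 5.24 in EtOH, 15.7, 26.7 and 19.4 in PF4hLPS, and 6.81, 6.73 and 9.66 in EtOH4hLPS. It had the lowest adjusted p among protein-coding genes, 0.00263, with a log2 fold change of -1.37 (SE 0.14), and was the 1 gene called without LPS. Cpe, the carboxypeptidase that trims prohormones, read 31.1, 43.4 and 48.1 FPKM in PF, 13.4, 13.9 and 17.8 in EtOH, 60.3, 78.6 and 64.5 in PF4hLPS, and 24.1, 35.6 and 46.9 in EtOH4hLPS. Within either LPS state the diets were apart, but EtOH4hLPS reached PF levels, since Cpe was also higher after LPS (log2 fold change 0.94, adjusted p = 0.00162); the diet difference was -1.16 (SE 0.18, adjusted p = 0.0263).

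Synpr, a synaptic vesicle membrane protein, had the largest averaged fold change of the 38. It read 3.63, 3.64 and 4.34 FPKM in PF and 1.63, 16.2 and 11.5 in PF4hLPS, but 0.141 FPKM or less in all 6 ethanol libraries, with 1 of them listed at 0. Its log2 fold change of -2.58 (SE 0.37, adjusted p = 0.0263) is on the FPKM+1 scale, which understates the change of a gene so low. Ctxn3, a small membrane protein of the cortexin family, likewise ranged from 7.9 to 37.7 FPKM in pair-fed libraries and from 0.446 to 4.53 FPKM in ethanol libraries, a difference of -2.19 (SE 0.37, adjusted p = 0.0428). In both genes the PF4hLPS libraries varied more among themselves than the PF libraries did.

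Lpl, lipoprotein lipase, which releases fatty acids from circulating triglyceride (chr8:68880491-68907448, plus strand), read 304, 317 and 227 FPKM in PF, 83.9, 87.2 and 71.1 in EtOH, 183, 430 and 205 in PF4hLPS, and 76.8, 70.7 and 156 in EtOH4hLPS. It fell by 1.60 (SE 0.25, adjusted p = 0.0299) with no overlap between the diets. Adipocytes are rich in Lpl, and of their markers Adipoq was at 0.2966 FPKM or less in every library but PF replicate 2, where it read 4.621, Plin1 and Cidec did not exceed 1.091 FPKM, and Fabp4 had a log2 fold change of -0.29 (adjusted p = 0.805). Without LPS Fabp4 differed by -0.79, from 33.7 to 73.5 FPKM in PF down to 22.7 to 30.7 in EtOH with no overlap, the same direction as Lpl, and with LPS it differed by 0.21 with overlap; its part in the Lpl difference was not tested. Without PF replicate 2 the log2 fold change of Lpl was -1.55 and did not pass (adjusted p = 0.108), and Lpl passed in 3 of the 12 fits that left out a library. Of the other 30 tested genes on a list of the lipoprotein lipase axis and lipid storage, none passed. The list's median was 0.12, with -0.06 without and 0.285 with LPS.

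Pzp, an alpha-macroglobulin protease inhibitor of plasma, read 80.8 to 111 FPKM in PF, 20.8 to 34.6 in EtOH, 79 to 165 in PF4hLPS and 13.3 to 42.2 in EtOH4hLPS. It fell by 1.93 (SE 0.27, adjusted p = 0.0256). Apoh and Apcs, which encode the plasma proteins apolipoprotein H and serum amyloid P, were also lower, with log2 fold changes of -0.85 and -0.98. Albumin (Alb), a liver gene checked beside these plasma proteins, lay between 4.593 and 14.95 FPKM, with a log2 fold change of 0.51 that did not pass (adjusted p = 0.367).

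Among the other lower genes, Car4, the membrane-bound carbonic anhydrase of the proximal tubule, read 94.8 to 171 FPKM in the 6 pair-fed and 56.3 to 73.4 FPKM in the 6 ethanol libraries (log2 fold change -0.87, adjusted p = 0.0354). Agps, a peroxisomal enzyme of ether lipid synthesis, read 198 to 403 FPKM against 113 to 163 FPKM (-1.02, adjusted p = 0.0446). B4galt5, a galactosyltransferase of glycosphingolipid synthesis, differed by -0.83 and was 1.85 log2 units higher after LPS, and Parp11, a mono-ADP-ribosyltransferase, differed by -0.81 and was 1.41 higher after LPS. The remaining lower genes were mostly of low abundance. Their log2 fold changes were -1.33 for Gm853, -1.14 for the ubiquitin ligase gene Rnf180, -1.06 for Cntnap5a of the neurexin family, -0.64 for Nxpe3 and -0.63 for Prok1, which encodes the secreted ligand prokineticin.

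Genes of mitosis were also among the lower calls. Cdk1, the kinase that drives entry into mitosis, read 2.29, 1.95 and 1.95 FPKM in PF, 0.582, 0.444 and 0.919 in EtOH, 2.25, 4.98 and 5.09 in PF4hLPS, and 1.56, 0.344 and 1.07 in EtOH4hLPS. All 6 ethanol libraries were below all 6 pair-fed libraries, and Cdk1 fell by 1.13 (SE 0.20, adjusted p = 0.0428). Ccnb2, a mitotic cyclin partner of Cdk1, read 0.746 to 1.46 FPKM in pair-fed and 0.0846 to 0.438 FPKM in ethanol libraries, a log2 fold change of -0.68 (adjusted p = 0.0306). Top2a, the topoisomerase that untangles chromosomes, differed by -0.81 (adjusted p = 0.0446), with EtOH4hLPS replicate 1 at 1.82 FPKM above the lowest PF library at 1.68. Kif20b, a kinesin of late mitosis that is not on the list, differed by -1.30 (adjusted p = 0.0471), from 2.62 to 8.6 FPKM in pair-fed down to 0.811 to 1.93 FPKM in ethanol libraries.

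Of 26 tested cell cycle genes, Ccnb2, Cdk1 and Top2a passed, all lower, where 0.326% of all protein-coding genes passed. At an unadjusted p under 0.05, 11 were lower and 1 higher, 42.3% and 3.85% of the list, against 4.78% and 5.08% of all protein-coding genes tested, and its median was -0.28. Ccne2, a cyclin of the entry into DNA synthesis, stood at -0.71 and did not pass (adjusted p = 0.182). Of the 43 genes on the list, 26 reached the filter, and those that were higher in pair-fed than in ethanol libraries could pass it through the pair-fed libraries alone, so the count covers the tested members only.

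Promoters of the 4 mitotic genes are shown because genes of this programme are known to share a CCAAT box, bound by NF-Y, and the cell cycle homology region (CHR), which sits close to the start site. Sequences are the 250 bases before the start in RefSeq on GRCm38.p6, written 5′ to 3′ on the strand of the gene, with CCAAT and TTTGAA or their reverse complements in capitals. The windows are chr10:69352913-69353162 for Cdk1, chr9:70421555-70421804 for Ccnb2 and chr11:99024190-99024439 for Top2a, all on the minus strand, and chr19:34922108-34922357 for Kif20b on the plus strand.
Cdk1: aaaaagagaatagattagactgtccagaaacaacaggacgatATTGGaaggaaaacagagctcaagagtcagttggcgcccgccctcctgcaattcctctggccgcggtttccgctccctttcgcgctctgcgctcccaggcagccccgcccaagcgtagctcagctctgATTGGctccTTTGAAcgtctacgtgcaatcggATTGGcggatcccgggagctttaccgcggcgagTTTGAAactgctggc
Ccnb2: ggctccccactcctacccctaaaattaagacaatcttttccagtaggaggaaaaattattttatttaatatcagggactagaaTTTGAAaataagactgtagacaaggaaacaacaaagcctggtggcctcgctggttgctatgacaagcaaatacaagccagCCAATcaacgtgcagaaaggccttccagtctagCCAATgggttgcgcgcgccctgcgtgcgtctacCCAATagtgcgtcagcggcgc
Top2a: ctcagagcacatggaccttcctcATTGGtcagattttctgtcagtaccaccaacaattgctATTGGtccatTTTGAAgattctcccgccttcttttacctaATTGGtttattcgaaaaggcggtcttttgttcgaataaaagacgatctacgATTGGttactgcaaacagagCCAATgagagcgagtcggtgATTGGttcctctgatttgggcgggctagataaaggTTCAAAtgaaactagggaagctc
Kif20b: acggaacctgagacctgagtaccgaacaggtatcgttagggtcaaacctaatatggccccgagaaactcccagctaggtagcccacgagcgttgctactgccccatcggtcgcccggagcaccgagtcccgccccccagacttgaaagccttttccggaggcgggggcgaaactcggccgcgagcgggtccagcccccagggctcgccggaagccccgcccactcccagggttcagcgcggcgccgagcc
The windows of Cdk1, Ccnb2 and Top2a hold 3, 3 and 6 CCAAT matches and 2, 1 and 2 TTTGAA matches, counted on both strands, and that of Kif20b holds neither. Over all 32851 promoters of the same length, 33.8% hold a CCAAT match and 16% a TTTGAA match on either strand. Promoters were found for 26 of the 38 called genes, of which 9 (34.6%) held CCAAT and 6 (23.1%) TTTGAA, shares that include these genes. The core of the antioxidant response element, TGACNNNGC, was held by 2 of the 26 (7.69%, against 10.2% of all promoters) and the androgen or glucocorticoid receptor half-site AGAACA by 5 (19.2%, against 16.1%). A match is a description of the letters only.

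Among the 10 genes higher on ethanol, Gc encodes the vitamin D binding protein (chr5:89417522-89457898, minus strand). It read 11.8, 11.9 and 12.5 FPKM in PF, 24.3, 24.9 and 37.9 in EtOH, 14.9, 15.3 and 19.3 in PF4hLPS, and 40.1, 98.8 and 40.7 in EtOH4hLPS. Every ethanol library exceeded every pair-fed library, and the log2 fold change was 1.42 (SE 0.22, adjusted p = 0.0263); EtOH4hLPS replicate 2 stood far above the other 2 of its group. Osgin1, a growth inhibitor induced by oxidative stress through the factor NRF2, read 2.37, 1.83 and 1.82 FPKM in PF, 6.23, 8.12 and 3.99 in EtOH, 2.12, 0.456 and 1.38 in PF4hLPS, and 3.51, 12.9 and 8.03 in EtOH4hLPS. Its difference of 1.55 (SE 0.28, adjusted p = 0.0446) was the largest on the higher side.

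Slc16a6, of the monocarboxylate transporter family, rose by 1.02 (SE 0.18, adjusted p = 0.0446), from 3.97 to 8.94 FPKM in pair-fed to 9.42 to 24.4 FPKM in ethanol libraries. Ces1d, a carboxylesterase that hydrolyses esters and triglyceride, was the most abundant higher gene, at 127 to 229 FPKM against 269 to 420 FPKM, and rose by 0.81 (SE 0.14, adjusted p = 0.0396). Cyp2d22, a P450 of family 2, read 1.47 to 2.78 FPKM in pair-fed and 3 to 4.6 FPKM in ethanol libraries (0.79, adjusted p = 0.0306). Epb41l3, a membrane skeleton protein, rose by 0.86, Limch1, a regulator of stress fibres, by 0.66, and Dzip1, a ciliary protein, by 0.77. The uncharacterised D630023F18Rik and BC049352 rose by 1.12 and 0.71. Next in order of p among higher genes whose diets did not overlap in either LPS state were Car14, a membrane carbonic anhydrase, at 0.69 (adjusted p = 0.0507) and Thbs1, thrombospondin, at 0.60 (0.0563), neither past the threshold.

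Exons of 8 called genes overlap exons of another gene in the annotation. Pzp, Prok1, Apoh, Slc16a6 and Dzip1 share positions with a gene on the opposite strand, and Top2a, Srd5a2, D630023F18Rik and Slc16a6 with a small or predicted gene on the same strand. The library kit keeps the strand, but whether the quantification used it is not stated in the labels, so those values are uncertain by what the partner contributes. The same holds for members of the Ces1 and Cyp2d families, which have near copies.

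Values at the threshold were close together. Genes just inside were Agps (adjusted p = 0.0446) and Kif20b (0.0471), and the first outside were Car14 (0.0507), Eri2 (0.0507) and Gusb (0.0511).

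No gene of a fixed panel of ethanol handling passed. Adh1, the cytosolic alcohol dehydrogenase, read 252, 254 and 301 FPKM in PF, 172, 177 and 149 in EtOH, 320, 405 and 399 in PF4hLPS, and 254, 234 and 308 in EtOH4hLPS, a log2 fold change of -0.60 (SE 0.13, adjusted p = 0.1). Cyp2e1, the ethanol-oxidising P450, read 991, 1036 and 1263 FPKM in PF, 667, 529 and 797 in EtOH, 1414, 1774 and 1424 in PF4hLPS, and 1203, 1030 and 1233 in EtOH4hLPS, a difference of -0.57 (SE 0.15, adjusted p = 0.189). In both genes the ethanol libraries lay below the pair-fed libraries within either LPS state. Aldh1a1, a retinal and acetaldehyde dehydrogenase, stood at 0.74 (adjusted p = 0.162), with its EtOH4hLPS libraries overlapping PF4hLPS. The mitochondrial Aldh2 was at 0.23, catalase (Cat) at 0.09, Acss2, which activates acetate, at 0.06 and Adh5 at 0.03, with adjusted p-values of 0.904 to 0.971. The first 3 of these averages join opposite signs without and with LPS: -0.09 and 0.54 for Aldh2, -0.08 and 0.26 for Cat, and -0.26 and 0.39 for Acss2. Without LPS, Acss2 read 81.9 to 87.4 FPKM in PF and 67.5 to 74.9 in EtOH, with no overlap.

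Lists of thick ascending limb and distal tubule, principal cell, and intercalated cell and acid-base genes had positive medians on ethanol. The 1 member called was Car4, which was lower. Car4 is on the last list as an acid-base gene but belongs to the proximal tubule, so that list does not stand for a single cell type. Of 25 tested thick ascending limb and distal tubule genes, none passed; 12 were higher and 0 lower at an unadjusted p under 0.05, 48% against 5.08% of all genes, and the median was 0.38. Klhl3, a regulator of the thiazide-sensitive cotransporter, stood at 0.48 (adjusted p = 0.14) and Egf at 0.47 (0.16). All 16 tested principal cell genes had positive fold changes, with 8 (50%) at an unadjusted p under 0.05 and a median of 0.41. Their leading members were the sodium channel subunits Scnn1a at 0.83 (adjusted p = 0.0591) and Scnn1b at 0.56 (0.128), which did not pass.

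The list of intercalated cell and acid-base genes had 28 tested members with a median of 0.41. At an unadjusted p under 0.05, 16 members were higher and 2 lower. These were 57.1% and 7.14% of the list, against 5.08% and 4.78% of all protein-coding genes tested. Its defining markers were Slc4a1, the basolateral anion exchanger, at 0.98 (adjusted p = 0.0607) and Atp6v1g3, a proton pump subunit, at 0.15 (0.916). In whole tissue, more cells of a type and more RNA per cell cannot be told apart. Of the thick ascending limb markers, Umod stood at -0.20 (adjusted p = 0.842) and Slc12a1, the sodium-potassium-chloride cotransporter, at 0.46 (0.281). Of the principal cell markers, the water channel Aqp2 stood at 0.30 (0.857) and the vasopressin receptor Avpr2 at 0.46 (0.24). Fold changes also followed GC content across genes, with a Spearman rho of 0.272 for the averaged contrast, -0.033 without LPS and 0.37 with LPS, as a description across genes that share libraries. The medians of these 3 lists kept their sign in all 28 alternatives, at 0.31 to 0.52, 0.31 to 0.54 and 0.37 to 0.59.

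**Figure D3:**
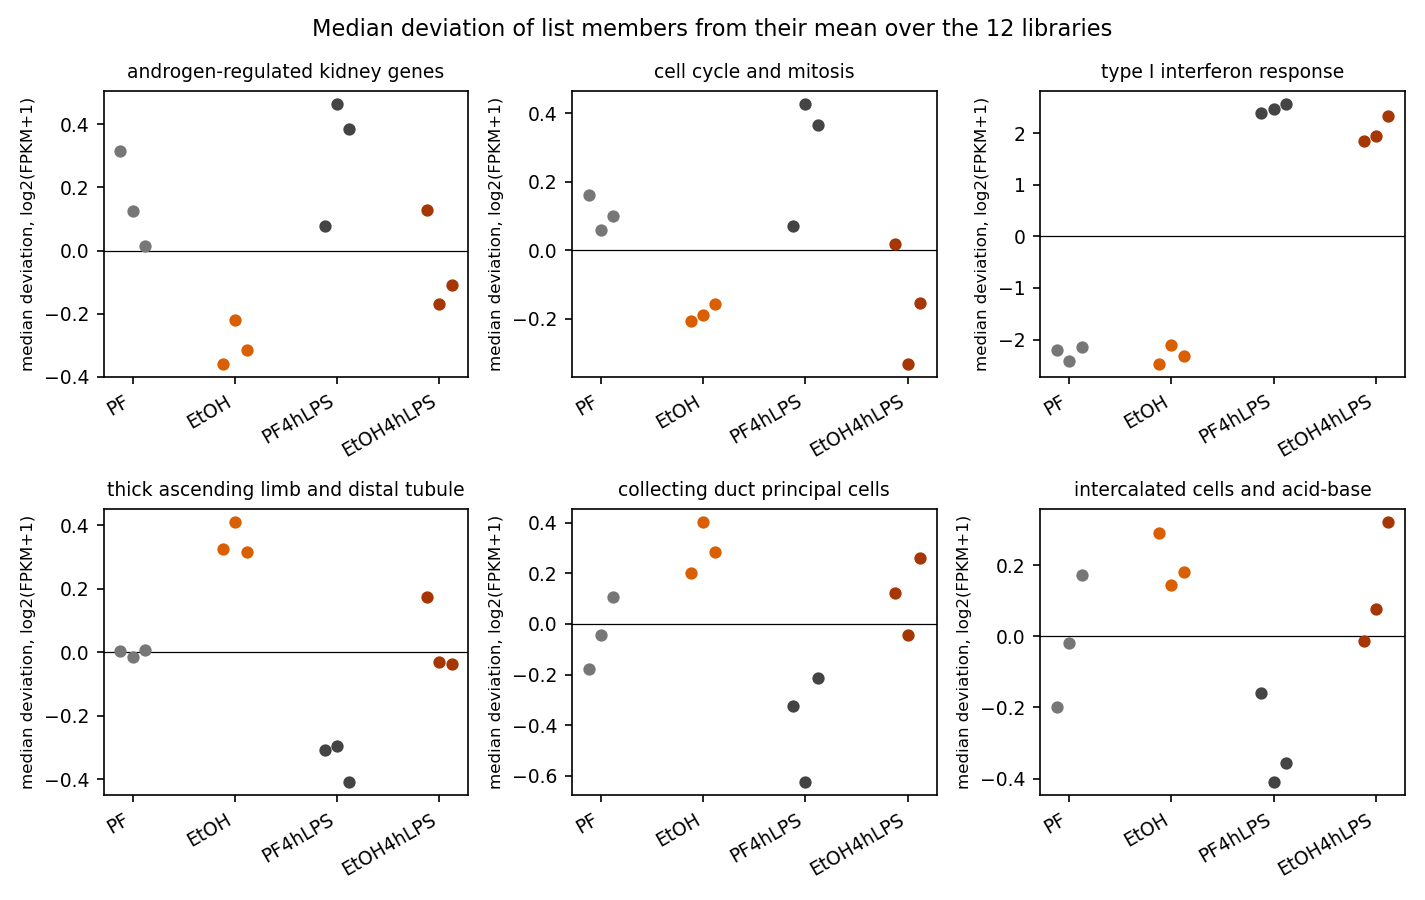
For 6 gene lists, the median over tested members of log2(FPKM+1) minus each gene's mean over the 12 libraries, with 1 point a library; the vertical scales differ between panels. Without LPS the EtOH libraries lie below the PF libraries for the androgen and cell cycle lists and above them for the thick ascending limb and principal cell lists; with LPS the same holds except for the androgen list, where EtOH4hLPS replicate 1 at 0.127 lies above PF4hLPS replicate 1 at 0.076, and in the interferon panel the LPS groups stand above the saline groups, with the EtOH4hLPS libraries between 1.842 and 2.328 and the PF4hLPS libraries between 2.386 and 2.577.

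Interferon genes had a negative median. None of the 43 tested passed in the averaged contrast, 39 had a negative fold change, 90.7% against 50% of all protein-coding genes, and 13 were lower at an unadjusted p under 0.05 with 0 higher, 30.2% lower against 4.78%. The median was -0.24, with -0.13 without and -0.33 with LPS. Ifit3b, an antiviral RNA-binding protein, stood at -0.45 (adjusted p = 0.164) and Gbp7, a guanylate-binding protein, at -0.48 (0.189). Ifit3b overlapped between the diets in saline, at 0.85 to 1.59 FPKM, and read 194 to 246 FPKM in PF4hLPS against 118 to 132 in EtOH4hLPS. Gbp7 overlapped in saline as well, at 3.37 to 4.48 FPKM, and read 226 to 356 FPKM in PF4hLPS against 138 to 164 in EtOH4hLPS. Immediate early genes had a median of 0.25, with 0.05 without and 0.40 with LPS, and 23 of 25 were positive. Their members of smallest p were Btg2 at 0.89 (adjusted p = 0.113), which was 0.20 without and 1.59 with LPS, and Ier2 at 0.60 (0.157). Cytokine and chemokine genes had a median of 0.16, with -0.03 without and 0.38 with LPS. Members of smallest p were Cxcl2 at 0.73 (0.081) and Il6 at 0.41 (0.316), which stood at 0.10 and 0.07 without LPS.

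Among blood cell genes, Ppbp, a platelet chemokine of low abundance in these libraries, read 0.806 to 1.5 FPKM in pair-fed and 0.241 to 0.476 FPKM in ethanol libraries (-0.61, adjusted p = 0.0306). The neutrophil marker S100a8 stood at -0.28 (adjusted p = 0.825), from 0.773 to 2.09 FPKM without LPS and 56.1 to 173 FPKM with it, and Ly6g, Mpo and Cd3e were near 0 in nearly all libraries. Of 12 tested neutrophil genes 11 had negative fold changes, 91.7% against 50% of all genes. The median was -0.16, with -0.05 without and -0.285 with LPS.

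The remaining lists held few or no called genes, and the members of smallest p are given as not passing unless stated. Their values are averages over the LPS states, which were unequal for several. At opposite signs without and with LPS stood Sqle (0.02 and -0.95), Lbp (0.07 and -1.19), Bhlhe40 (-0.04 and 0.68) and Gzmb (0.07 and -0.47). Among those that differed mostly with LPS were Ccn1 (0.32 and 1.8), Slc22a8 (0.355 and 1.52), Nos2 (-0.06 and -1.15) and Chac1 (-0.02 and -1.025). Glutathione enzymes of smallest p were Gsta2 at 0.86 (adjusted p = 0.1) and the secreted peroxidase Gpx3 at 0.67 (0.143). Among NRF2 targets Osgin1 passed and Abcc4, an efflux pump, stood at 0.74 (0.1). Family 2 P450 genes had Cyp2a5 lower and Cyp2d22 higher past the threshold, then Cyp2d12 at 0.86 (0.0828) and Cyp2d9 at 1.25 (0.0914), with a list median of 0.12 over 24 genes. Glucuronosyltransferases had Ugt1a10 at 1.46 (0.0943) and Ugt1a2 at 1.43 (0.17). Organic anion carriers had Slc22a8 at 0.94 (0.101) beside Abcc4. Proximal tubule identity genes had Slc22a8 and Alpl at 0.82 (0.15), and a list median of 0.15, with -0.02 without and 0.28 with LPS.

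Of 39 glucose handling genes 32 were positive, 82.1% against 50% of all genes. Their median was 0.23, with 0.06 without and 0.35 with LPS, and they were led by Slc2a2 at 0.73 (adjusted p = 0.143) and Pfkm at 0.58 (0.159). Citrate and succinate carriers Slc13a3 and Slc13a2 stood at 0.74 (0.189) and 0.64 (0.201), the phosphate carrier Slc34a3 at 0.81 (0.163) and Vdr, the vitamin D receptor, at 0.81 (0.19), which was 0.03 without and 1.59 with LPS. In the cholesterol list Idi1 was at -1.05 (0.128) and Sqle at -0.46 (0.34). In the fatty acid oxidation list Acot3 was at 0.64 and Acaa2 at 0.68 (both 0.321), and in fatty acid synthesis Scd2 was at 0.59 (0.265) and Me1 at -0.29 (0.481). Slc1a4, a neutral amino acid carrier listed with the called Slc6a15, stood at -0.53 (0.14).

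Odc1, the first enzyme of polyamine synthesis, was at -0.90 (adjusted p = 0.24) and Bhmt, a methionine synthesis enzyme, at 0.70 (0.224), and arginine and nitric oxide genes were led by Oat at 0.62 (0.199) and Nos2 at -0.60 (0.288). In the iron and zinc list Slc40a1, the iron exporter, stood at -0.40 (0.201) and Hfe at 0.31 (0.321). Retinoid genes had Cyp26b1 at 0.80 (0.147) beside Adh1; it was 1.54 without LPS and 0.06 with LPS, where no library read above 0.101 FPKM. Among renin-angiotensin genes, Nr3c2 stood at 0.42 (0.189) and Ace at -0.42 (0.307), and among glucocorticoid genes Hsd11b1 passed and Hsd11b2 stood at 0.64 (0.224). Insulin and IGF genes had Trib1 at 0.43 (0.183) and Sesn3 at 0.42 (0.189). Tubular injury genes had Ccn1 at 1.06 (0.128) and Il18 at -0.70 (0.232), matrix genes Thbs1 and Bgn at 0.52 (0.33), podocytes Actn4 at 0.56 (0.24) and Tcf21 at 0.53 (0.28), and endothelium Mmrn2 at 0.33 (0.385) and Apln at -0.29 (0.407).

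Members of the immune and stress lists did not pass either. Acute-phase and complement genes had C4b at -0.66 (adjusted p = 0.211) and Cd55 at -0.54 (0.318), antigen presentation Nlrc5 at -0.41 (0.25) and Ly6c2 at -0.64 (0.264), LPS recognition Lbp at -0.56 (0.407) and Aoah at 0.31 (0.451), and lymphocytes Jchain at -0.42 (0.349) and Gzmb at -0.20 (0.769). Chaperones had Dnaja1 at -0.53 (0.254) and Ahsa1 at -0.37 (0.345), and the unfolded protein response Sdf2l1 at -0.40 (0.398) and Chac1 at -0.52 (0.423). Clock genes had Bhlhe40 at 0.32 (0.653) and Nr1d2 at -0.26 (0.734). Medians of the ribosomal protein, proteasome and respiratory chain lists were -0.13, -0.10 and -0.07, and each turned positive when libraries were scaled to equal total FPKM, which moved the median of all genes to 0.14; their leading members were Rpl39 at -0.42 (0.521) and Rps25 at -0.33 (0.779), Psma5 at -0.31 (0.707) and Psmc6 at -0.23 (0.711), and Cycs at -0.36 (0.631) and Ndufb4 at -0.49 (0.662).

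The diet effect was then set side by side in the LPS states, which share no library. Taken alone, the contrast without LPS called 1 gene, 0.00857% of those tested, with 406 at an unadjusted p under 0.05. The contrast with LPS called 10, 0.0857%, with 1314 at an unadjusted p under 0.05. Across the 11674 genes, which are not independent replicates, the fold changes without and with LPS had a Pearson correlation of 0.274 and a Spearman correlation of 0.179, and 55% had the same sign. Of the 38 called genes, 26 had the larger absolute change with LPS and 12 without, with a median absolute difference of 0.34 between the states. The genes were called on these values and the counts have no share over all genes beside them, so nothing is read from them.

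**Figure D4:**
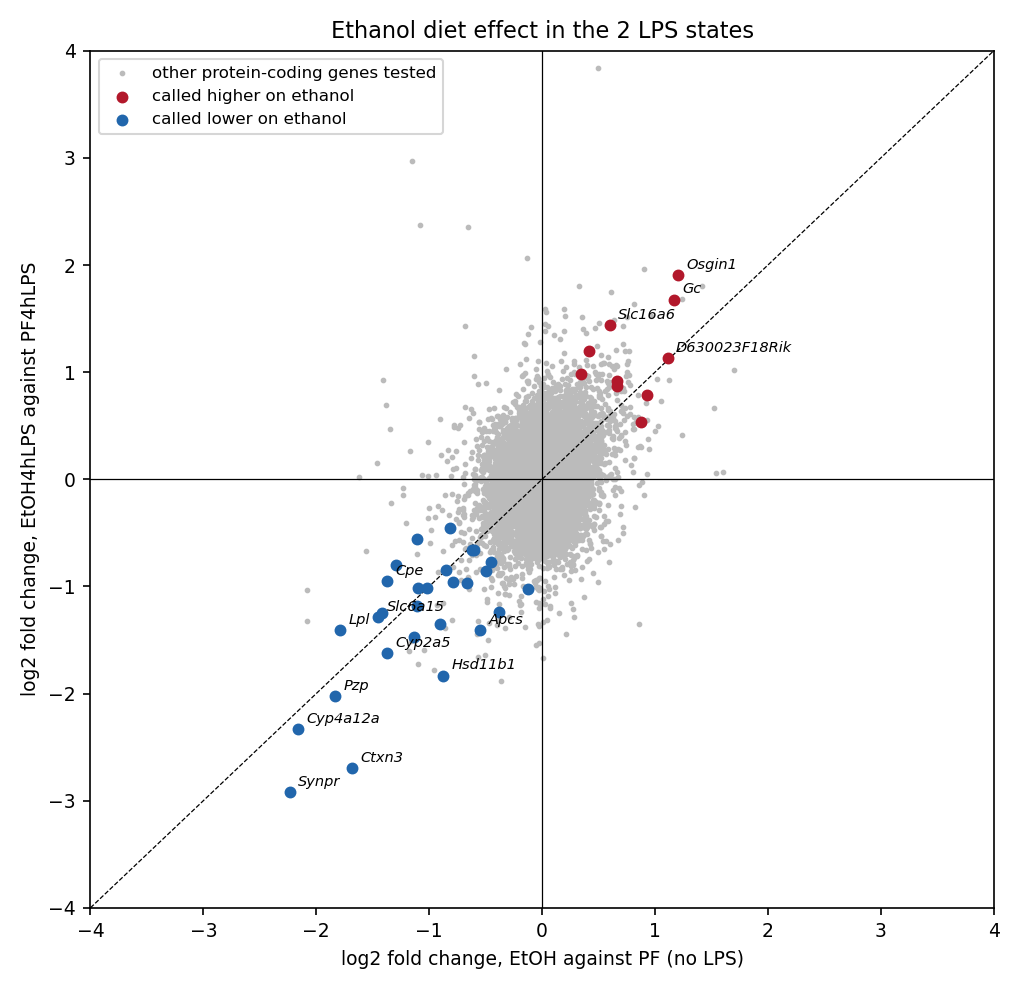
Log2 fold change of ethanol against pair-feeding without LPS (x axis) and with LPS (y axis) for 11674 protein-coding genes (grey), the 10 genes called higher (red) and the 28 called lower (blue); the dashed line marks equal changes. All 38 coloured points lie in the lower left or upper right quadrant, which calling on the mean of both values favours.

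The test of the difference between LPS states called no gene (limma interaction contrast, 0 at adjusted p under 0.05, and 469 of 11674 at an unadjusted p under 0.05). Of the 38, 7 had an unadjusted interaction p under 0.05, with a lowest adjusted p of 0.846. Among them were Parp11, Limch1, Ces1d, Apcs, Hsd11b1 and Slc16a6, each with the larger change with LPS. Parp11 differed by -0.38 without and -1.24 with LPS, Hsd11b1 by -0.88 and -1.83, Apcs by -0.55 and -1.41, Limch1 by 0.35 and 0.98, Ces1d by 0.41 and 1.20, and Slc16a6 by 0.60 and 1.44. At the other end, Agps differed by -1.02 and -1.01 and Apoh by -0.85 and -0.85.

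LPS averaged over the diets called 3671 genes, 31.4% of those tested, and 10 of the 38, 26.3%. Among these, Slc6a15, Cpe, Parp11, Gc and B4galt5 were higher after LPS, and Limch1, D630023F18Rik, Dzip1 and Nxpe3 were lower. For Slc6a15, Cpe, Parp11 and B4galt5 the diet difference had the opposite sign to the LPS difference, as it did for Limch1, D630023F18Rik and Dzip1, while Gc and Nxpe3 moved the same way with both. No share of opposite signs over all genes stands beside these signs, so nothing is read from them.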

How the data were processed

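RNA of kidney cortex from 12 samples was sequenced after ribosomal RNA depletion with a strand-preserving kit, per the labels' protocols. The authors deposited 1 table of FPKM values, for which the submitters' processing notes name the mm10 build, Cufflinks 2.2.1, Cuffnorm, Cuffdiff 2.1.1 and the aligner TopHat2 2.0.4; which tool made the values is not given in the sources used here. Of 47719 gene identifiers, 47305 matched GENCODE M21 and 414 did not. Genes with at least 1 FPKM in at least 3 libraries (14109) were fitted on log2(FPKM+1) with limma 3.58.1 in R 4.3.3, with 1 mean per group, an intensity trend and a robust prior. P-values are two-sided and Benjamini-Hochberg adjusted over all 14109 genes. The fitting code was tested on simulated data. Exact permutations exchanged diet within LPS state. The labels do not say whether libraries of a group come from separate mice, so each p-value measures only the spread among these samples, which may be partly technical. Depth is unknown in reads, so no counting interval is given.

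Members, gene lists and named genes were chosen with earlier results of these data known. The rule for named genes took all called genes (in full, up to 14 a direction whose highest group mean was at least 5 FPKM, predicted genes left out, and filled to 8 with genes that do not overlap between diets), a panel of 7 ethanol-handling genes, and the 2 to 4 members of smallest p of each of 47 lists. The LPS contrast and the fit without 3 libraries were chosen after seeing the data. Lists are described by counts and medians without a test. Replicate numbers did not pair the samples: same-numbered libraries of different groups had deviations correlated between -0.206 and 0.279. Values of some genes that the rule names are not reported here.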

Additional observations from a re-analysis of the deposited data

How the results depend on the processing

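All 38 called genes kept their direction in every alternative in which they were tested, and no tested result among the named genes turned round. In 37 of the 38 the diets lay apart within either LPS state. Leaving out a library or changing the pseudocount could not turn the direction of these genes, so nothing is read from the kept directions. Calling on the mean of both LPS states favours equal signs, so nothing is read from the same-sign (shared) numbers below. Counts of calls, given as higher, lower and the number with the same sign in both LPS states, were 10, 28 and 38 as reported, and moved as follows. They were 0, 4 and 4 with no filter on low values, 5, 13 and 18 with at least 5 FPKM in 3 libraries, and 5, 14 and 19 with libraries scaled to equal total FPKM. Scaling to equal protein-coding FPKM gave 14 lower and 21 shared. Fitting protein-coding genes alone gave 24, 45 and 69, array weights, whose iterations did not all converge, 33, 53 and 85, and removal of the GC trend 31, 46 and 77. An additive model called 6 higher. Leaving out 1 library gave 0 to 18 higher, 3 to 50 lower and 3 to 68 shared.

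The contrast without LPS, with 1 call as reported, called 2 genes with a pseudocount of 0.1, 192 with array weights, 4 without the 3 libraries that declined with GC, and 0 with no filter, a stricter filter, equal protein-coding FPKM, median-ratio factors, protein-coding genes alone or a prior without trend. Leaving out 1 library gave 0 to 2. The contrast with LPS, with 10 as reported, called 4 with a pseudocount of 0.1, 3 with 0.5, 35 with protein-coding genes alone, 4 with a prior without trend, 30 after GC correction, 24 without the 3 libraries, and 0 with no filter, equal total FPKM, equal protein-coding FPKM or array weights; leaving out 1 library gave 0 to 36. The interaction called 1 gene, Angptl4, without the 3 libraries. The cause of these shifts was not tested beyond what each choice changes by construction.

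A replicate block, although the numbers do not pair the samples, gave 0 higher and 4 lower (Slc6a15, Cyp2a5, Rnf180 and Cpe), 4 shared, 0 without LPS and 0 with LPS. A block with GC correction gave 16 higher, 2 without LPS and 0 with LPS. Depth is known only in relative terms, so low genes such as Ppbp and Ccnb2 carry an unknown counting error.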

Other observations

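With only protein-coding genes fitted and adjusted, 31 further genes passed, and their values are given here as chosen after they were seen. Several sit beside called genes. Pf4, the neighbour of Ppbp among the platelet chemokine genes, stood at -0.84 (adjusted p = 0.0282 in that fit), A2m, an alpha-macroglobulin like Pzp, at -0.82 (0.0236), and the mitotic genes Prc1, Pbk and Cdca3 at -1.05 (0.0338), -0.99 (0.0486) and -0.58 (0.0418). Of these, Pf4, A2m, Pbk and Cdca3 reached 1 FPKM in pair-fed libraries alone and so passed the filter only through that diet. Kynu, the kynureninase of tryptophan breakdown, had the largest fold change among the 31, at 1.61 (0.0295), positive without LPS (1.42) and with it (1.81). On the androgen list Cndp2, a dipeptidase, stood at -1.11 (0.0343), while Hao2, a peroxisomal hydroxyacid oxidase, stood at 0.84 (0.0486). Eri2 and Acsm3 stood at -1.41 and -1.39 (both 0.0244).

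The contrast with LPS alone called 3 genes that the averaged contrast did not. Among them were the chemokine Cxcl2 at 1.35 with and 0.10 without LPS, and Trim14, an antiviral adaptor, at -1.09 and -0.19.

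Of 2435 genes outside the protein-coding class that were tested, 7 passed in the averaged contrast, and 4 of these small RNA genes (Mir1966, Gm23731, Gm22586 and Gm24337) were listed at 0 in all 9 libraries of 3 groups and above 0 in all 3 libraries of 1 group. Mir1966 read 13.3, 17.3 and 13.3 FPKM in EtOH only, and Gm23731 read 19.1, 18.6 and 33.5 FPKM in EtOH4hLPS only. An exact 0 can be a failed estimate, so no fold is given for them.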
